A study of Schmidtea mediterranea with 100 samples.

Results

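Developmental transcription factor genes named hb-2, klf, lmx2, foxQ2, Dll-1, DLL-2, PAX5-1 and hesl-3 were described in planarian cells that had been sorted by their content of DNA and RNA. The members were chosen by name: these 8 names matched 9 of the 67386 transcripts of the bulk table, because 2 transcripts carried the name klf, and 7 of the 38237 transcripts of the single-cell table. The cells came from wild type animals of the asexual clonal strain CIW4 of Schmidtea mediterranea, a freshwater flatworm that regenerates from dividing stem cells called neoblasts. All animals were dissociated and their cells stained with Hoechst, which marks DNA, and pyronin Y, which marks RNA, before sorting. The groups were the RNA-low, S/G2/M, G1 and PM gates, with 1 bulk library each; another 96 libraries were made with Smart-seq2 from individual RNA-low cells. PM is used as the labels give it, without being spelled out there, and the labels name no animals, pools or plates, so the 96 cells counted as 1 sample.

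Transcription factors bind DNA and set which genes a cell uses, and in planarians the neoblasts that already express a fate-specifying factor are called specialized neoblasts. The genes described here belong to several families. Dll-1 and DLL-2 are named after Distal-less, the homeobox gene of appendage outgrowth in Drosophila, and lmx2 after the LIM-homeobox genes that pattern limbs and brain in vertebrates. The name foxQ2 is that of a forkhead gene expressed at the apical pole of sea urchin embryos, klf denotes Krüppel-like zinc-finger factors, and PAX5-1 a paired-box factor whose mammalian namesake commits cells to the B lymphocyte lineage. The hesl genes are named after hairy and enhancer of split, basic helix-loop-helix repressors that act downstream of Notch in flies and vertebrates. The name hb-2 is not spelled out in the files.

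Counted bulk reads numbered 57385665 in RNA-low, 74968402 in S/G2/M, 54070578 in G1 and 47338591 in PM. Levels are given as CPM, counts per 1000000 of a library scaled by the trimmed mean of M values (TMM). They are relative to the library, and in bulk samples fewer cells of a type and less RNA per cell cannot be told apart. Each starting fragment appeared to have been read several times, about 5 times in RNA-low, 21 in S/G2/M, 9 in G1 and 25 in PM, so the 95% intervals were computed on reads divided by these numbers. With 1 library per gate there was no replicate check, no test and no p, and all intervals cover counting error only. The pan-neoblast markers piwi-1, piwi-2, piwi-3 and bruli summed to 7439 CPM in RNA-low, 10246 in S/G2/M, 5725 in G1 and 3399 in PM, and the S-phase markers PCNA and mcm2 to 49.9 CPM in RNA-low, 647 in S/G2/M, 168 in G1 and 49.5 in PM. Markers of other tissues were read as well, with the epidermal gene vim-1 between 2.02 CPM in RNA-low and 112 CPM in PM and the muscle gene titin between 0.515 CPM in S/G2/M and 12.9 CPM in PM. The intestinal genes porcnA and porcn-B summed to 137 CPM in RNA-low, 165 in S/G2/M, 117 in G1 and 103 in PM. By itself porcnA was highest in S/G2/M and porcn-B in G1. The secretory gene mucin was at 0.185 CPM in RNA-low and G1 and at 0 in S/G2/M and PM.

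The genes fell into different orders over the gates. By point estimate, levels of hb-2, Dll-1, lmx2, foxQ2 and the klf transcript SmedASXL_002500 were highest in RNA-low. Those of the klf transcript SmedASXL_005628, DLL-2 and hesl-3 were lowest in RNA-low, and PAX5-1 was lowest in S/G2/M. Of the pair named for Distal-less, Dll-1 was higher in RNA-low than in G1 and DLL-2 lower, both past 2-fold. The klf transcripts had different highest gates, but the intervals of SmedASXL_002500 included equality against S/G2/M and PM, and that of SmedASXL_005628 did so against PM. How reads were assigned to related transcripts is not stated, and counting could have divided them between the entries of a pair.

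**Figure D1:**
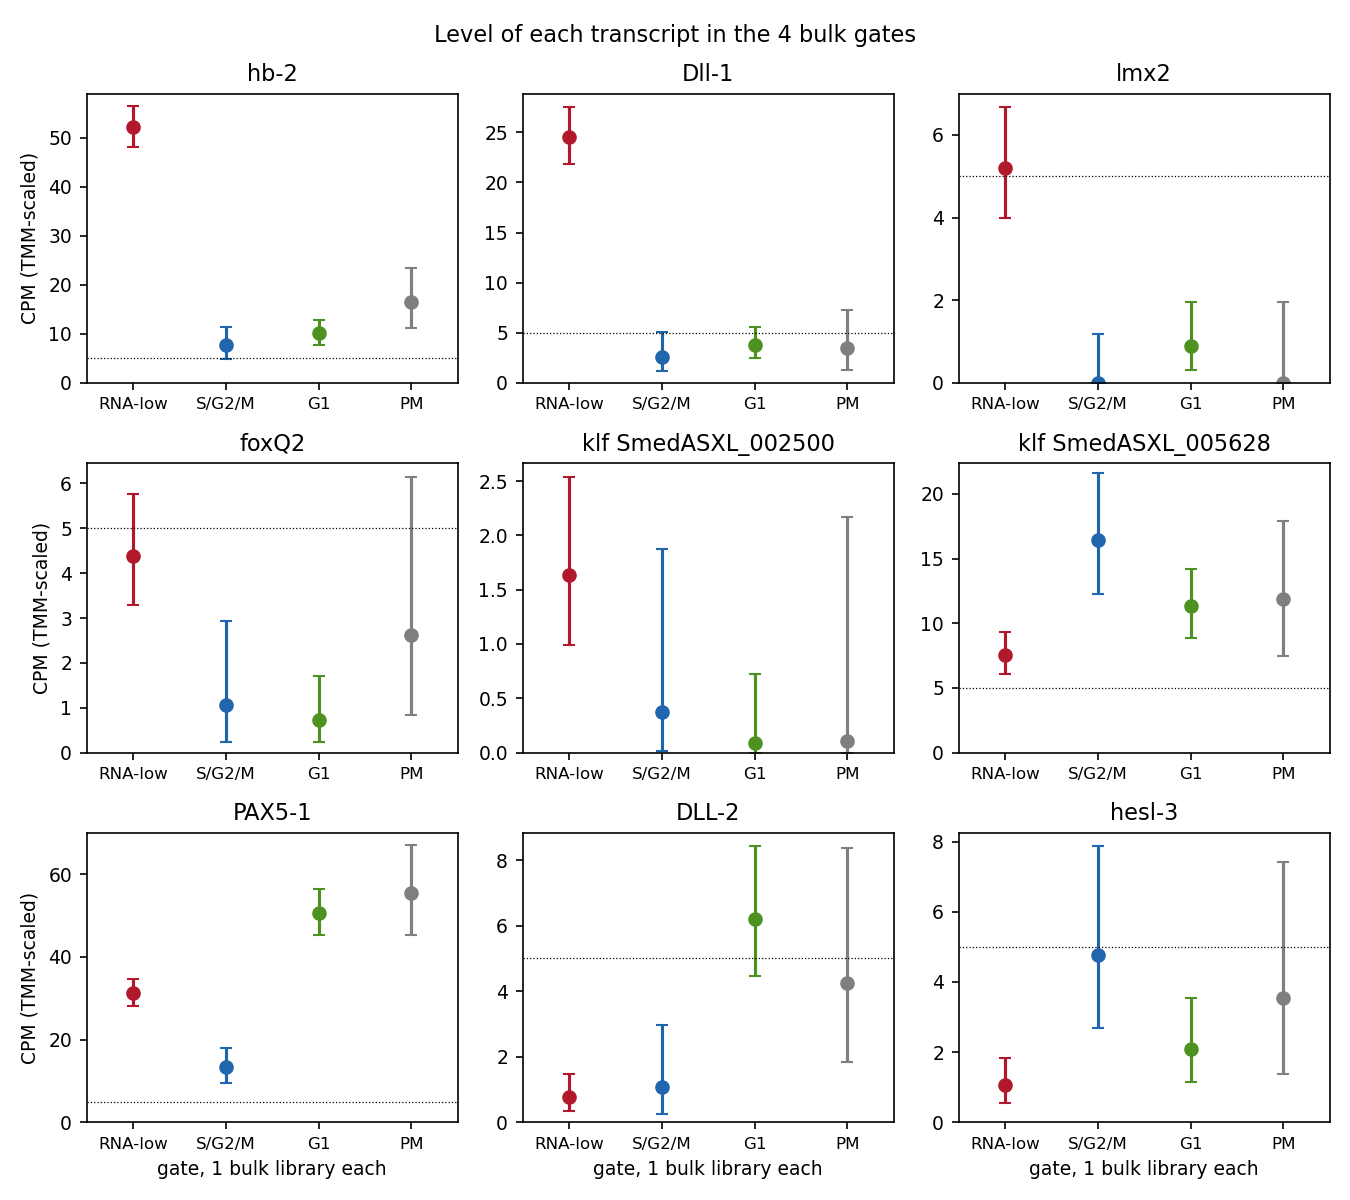
Level of each of the 9 transcripts in the RNA-low, S/G2/M, G1 and PM bulk libraries, in TMM-scaled CPM on a linear axis that starts at 0 in each panel. Points are single libraries, bars are 95% Poisson intervals on estimated fragments, and the dotted line marks 5 CPM; hb-2 stood at 52.2 CPM in RNA-low, above the other 3 gates.

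The transcript hb-2 had 3103 reads or 52.2 CPM in RNA-low (interval 48.2 to 56.5), 7.73 CPM in S/G2/M (4.97 to 11.5), 10.1 CPM in G1 (7.83 to 12.8) and 16.5 CPM in PM (11.2 to 23.4). RNA-low was above every other gate, with log2 ratios of 2.31 over G1 (interval 2.00 to 2.76), 2.68 over S/G2/M (2.17 to 3.40) and 1.64 over PM (1.15 to 2.24). A log2 ratio here is taken after adding 0.5 CPM to each level, while its interval is that of the CPM ratio itself. Of the neighbours in the order below RNA-low, PM and G1 were separated narrowly (G1 over PM -0.68, interval -1.34 to -0.04) and S/G2/M and G1 were not (S/G2/M over G1 -0.37, interval -1.12 to 0.30).

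The Distal-less gene Dll-1 stood at 24.6 CPM in RNA-low (21.8 to 27.6), 2.60 in S/G2/M (1.14 to 5.09), 3.80 in G1 (2.46 to 5.61) and 3.46 in PM (1.33 to 7.30). Its log2 ratio of RNA-low was 3.01 over S/G2/M (2.25 to 4.45), 2.54 over G1 (2.1 to 3.34) and 2.66 over PM (1.73 to 4.22). The levels in S/G2/M, G1 and PM did not differ beyond counting error. RNA-low was thus the one high gate of Dll-1, and the 3 low gates could not be ranked among themselves.

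The LIM-homeobox gene lmx2 had 309 reads in RNA-low, 0 in S/G2/M, 53 in G1 and 0 in PM. These were 5.20 CPM in RNA-low (3.98 to 6.67) and 0.891 CPM in G1 (0.323 to 1.95), a log2 ratio of 2.03 (1.33 to 4.06). For fold values against the gates without reads, a floor of 3 fragments per library stood in for the level. It was 0.953 CPM in S/G2/M and 1.59 CPM in PM. Set against that floor, the RNA-low level of lmx2 was 5.45-fold that of S/G2/M and 3.27-fold that of PM. The intervals of the ratios began lower, at 4.30-fold and 2.58-fold. The G1 level could not be separated from that of S/G2/M or PM. With median-of-ratios scaling the RNA-low level was 4.99 CPM, under the 5 CPM set as the minimum for a call. Thus lmx2 was then called in none of the RNA-low comparisons, at log2 ratios of 2.01 over G1 and 3.46 over S/G2/M and PM. The ratio of 3.46 was taken over 0 CPM plus the added 0.5 CPM, not over the floor.

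The forkhead gene foxQ2 and the klf transcript SmedASXL_002500 were below that 5 CPM minimum in every gate. The foxQ2 level was 4.39 CPM in RNA-low (3.28 to 5.76), 1.06 in S/G2/M (0.244 to 2.94), 0.723 in G1 (0.227 to 1.72) and 2.63 in PM (0.849 to 6.16). RNA-low was separated from G1 (log2 ratio 2.00, interval 1.26 to 4.33) and S/G2/M (1.65, interval 0.50 to 4.22), but not from PM (0.64, interval -0.58 to 2.43). With totals without ribosomal RNA, foxQ2 reached 5.47 CPM in RNA-low and was called higher over G1 (2.04) and S/G2/M (1.82). The klf transcript had 97 reads in RNA-low, 25 in S/G2/M, 5 in G1 and 5 in PM, which came to an estimated 19.4 fragments in RNA-low, 1.19 in S/G2/M and fewer than 1 in G1 and PM. Its RNA-low level of 1.63 CPM was separated from that of G1 (log2 ratio 1.87, interval from 1.02), while the intervals against S/G2/M and PM included equality.

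The paired-box gene PAX5-1 had an order of its own, with 31.3 CPM in RNA-low (28.2 to 34.6), 13.3 in S/G2/M (9.59 to 18.0), 50.7 in G1 (45.4 to 56.4) and 55.4 in PM (45.3 to 67.1). G1 and PM did not differ beyond counting error (G1 over PM -0.13, interval -0.45 to 0.20). RNA-low stood between these gates and S/G2/M, with log2 ratios of -0.69 over G1 (-0.91 to -0.48) and -0.81 over PM (-1.14 to -0.50), both short of 2-fold, and 1.20 over S/G2/M (0.77 to 1.73). S/G2/M was lower than G1 by a log2 ratio of -1.89 (-2.43 to -1.46) and lower than PM by -2.02 (-2.61 to -1.53).

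The second Distal-less gene, DLL-2, was at 0.774 CPM in RNA-low (0.358 to 1.46), 1.07 in S/G2/M (0.251 to 2.97), 6.21 in G1 (4.45 to 8.42) and 4.26 in PM (1.84 to 8.38). RNA-low and S/G2/M were not separated, and neither were G1 and PM. RNA-low was lower than G1 (log2 ratio -2.40, interval -4.22 to -1.95), and so was S/G2/M (-2.09, interval -4.69 to -0.96). In RNA-low and PM alike DLL-2 was below 5 CPM, and the log2 ratio of RNA-low over PM was -1.90 (-3.99 to -0.90). The early epidermal progeny transcripts, also low in RNA-low, summed to 1860 CPM in RNA-low, 6405 in S/G2/M, 29657 in G1 and 20171 in PM. Of these 18 transcripts, 10 were highest in G1, 6 in S/G2/M, where DLL-2 was low, and 2 in PM. Their part in the DLL-2 levels was not tested.

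The klf transcript SmedASXL_005628 varied least of the members that reached 5 CPM, at 7.55 CPM in RNA-low (6.07 to 9.29), 16.5 in S/G2/M (12.3 to 21.6), 11.3 in G1 (8.90 to 14.2) and 11.9 in PM (7.48 to 17.9). RNA-low was lower than S/G2/M by a log2 ratio of -1.07 (-1.63 to -0.60), just past 2-fold. That call was lost with library totals (-0.85), with totals without ribosomal RNA (-0.94) and with 2 CPM added (-0.95). RNA-low was below G1 by less than 2-fold (-0.55, interval -1.04 to -0.12) and not separated from PM (-0.62, interval -1.33 to 0.09). S/G2/M, the gate with the highest level, was above G1 by less than 2-fold (0.52, interval 0.000544 to 1.07), with equality only just excluded. From PM it was not separated (0.46, interval -0.27 to 1.26), and neither ratio was a call.

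Bulk reads of hesl-3 were few, with 63 in RNA-low, 316 in S/G2/M, 125 in G1 and 167 in PM. They came to an estimated 12.6 fragments in RNA-low, 15.0 in S/G2/M, 13.9 in G1 and 6.68 in PM. Levels were 1.06 CPM in RNA-low (0.558 to 1.83), 4.78 in S/G2/M (2.68 to 7.88), 2.1 in G1 (1.15 to 3.53) and 3.54 in PM (1.39 to 7.42). RNA-low was separated from S/G2/M (log2 ratio -1.76, interval -3.38 to -0.99) and from PM (-1.37, interval -3.20 to -0.13), but not from G1 (-0.74, interval -2.21 to 0.22). With TMM none of these ratios counted as a call, since hesl-3 stayed under 5 CPM in all 4 libraries. Other scalings put it above 5 CPM in S/G2/M, and RNA-low was then called lower than S/G2/M with median-of-ratios scaling (-1.91) and with totals without ribosomal RNA (-1.70). S/G2/M was also called higher than G1 with median-of-ratios scaling (1.16), and RNA-low lower than PM with totals without ribosomal RNA (-1.70).

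**Figure D2:**
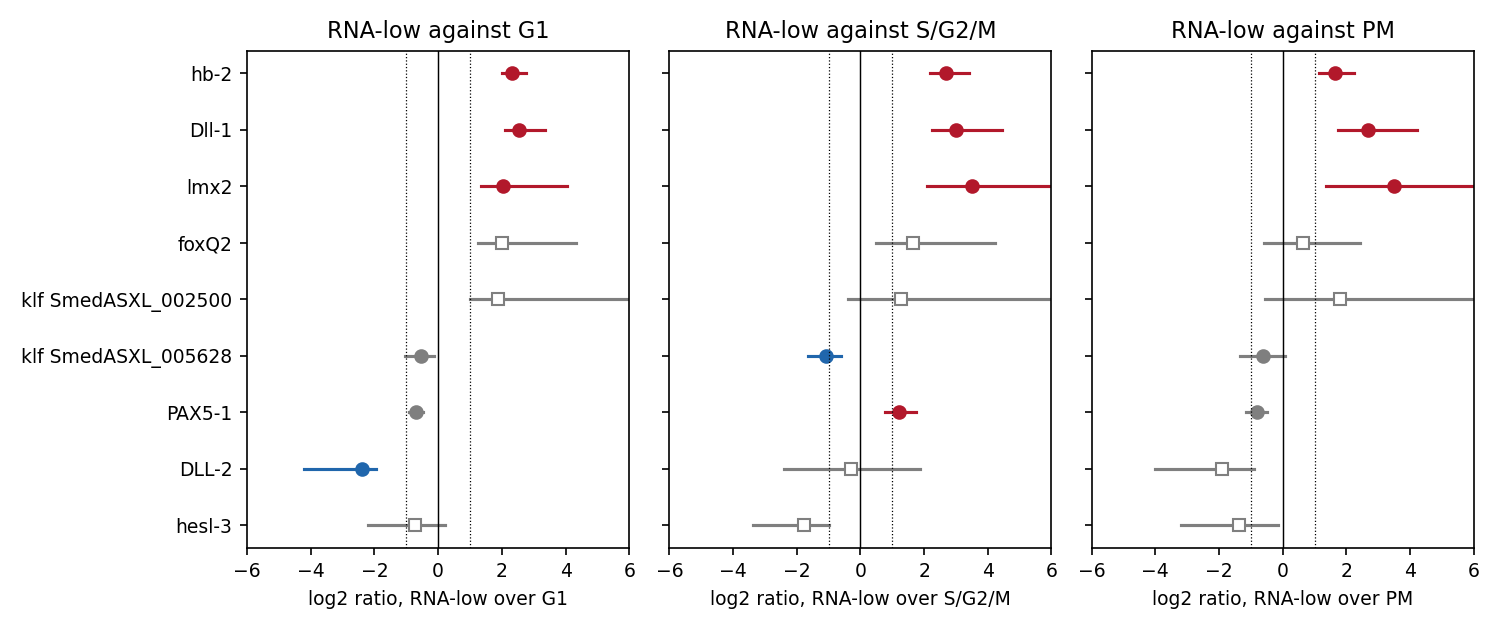
Log2 ratio of RNA-low over G1, S/G2/M and PM for the 9 transcripts, with lines for the 95% interval of the CPM ratio, which are cut at the axis limits. Red marks a call higher in RNA-low, blue a call lower, grey no call; open squares are transcripts under 5 CPM in both gates, and hb-2, Dll-1 and lmx2 lie right of the dotted 2-fold line in all 3 panels.

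A transcript was called when it reached 5 CPM in either gate, differed by at least 2-fold and had an interval that excluded equality. Of the 9 transcripts, 6 reached 5 CPM in RNA-low or G1. In RNA-low, 3 were called higher than in G1 (hb-2, Dll-1 and lmx2) and 1 lower (DLL-2), where 7.12% of all 11890 transcripts tested were called higher and 9.78% lower, 16.9% in all. The median log2 ratio of the 6 was 0.74, against 0.10 over all transcripts tested. Against S/G2/M, 5 reached the minimum, and 4 were called higher in RNA-low (hb-2, Dll-1, lmx2 and PAX5-1) and 1 lower, with 22.5% of 12040 transcripts called higher and 18.1% lower, 40.6% in all. The medians were 2.68 for these 5 members and -0.00 over all. Against PM, 5 reached the minimum, and 3 were called higher (hb-2, Dll-1 and lmx2) and none lower, with 14.2% of 13069 transcripts called higher and 19.1% lower, 33.3% in all. The medians here were 1.64 for the 5 members and 0.29 over all. With median-of-ratios scaling, which removed the lmx2 calls, 2 members were higher and 1 lower against G1, 3 higher and 2 lower against S/G2/M with hesl-3 added, and 2 higher against PM. These 3 comparisons share the RNA-low library, and Dll-1, lmx2 and DLL-2 reached the minimum only through their higher gate, so the counts describe the members and support nothing further.

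Outside RNA-low the calls were fewer. In S/G2/M, 2 of 4 members that reached 5 CPM were called lower than in G1, PAX5-1 and DLL-2, where 18.2% of 11895 transcripts were called lower and 12.6% higher, 30.8% in all. PAX5-1 and hb-2 were called lower in S/G2/M than in PM, with 24.7% of 13002 transcripts called lower and 21.6% higher, 46.3% in all; 3 members reached 5 CPM there. The hb-2 ratio of -1.04 (-1.92 to -0.28) was close to the 2-fold line, and the call was lost with median-of-ratios scaling (-0.91) and with 2 CPM added (-0.92). In G1, none of the 4 members that reached 5 CPM was called apart from PM, with 7.29% of 12953 transcripts called higher and 14.4% lower, 21.7% in all. Over all 13992 transcripts with 5 CPM in at least 1 gate, 30.6% were highest in RNA-low, 34.3% in S/G2/M, 12.5% in G1 and 22.6% in PM. Of the 6 members at that level, 3 were highest in RNA-low and 1 in each of the other gates.

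For each member at 5 CPM or more, the named genes with the most similar profile over the 4 gates were found by the root mean square distance between log2 profiles, each centred on its mean, among 119 named transcripts. The nearest to Dll-1 was arx, a homeobox gene, at a distance of 0.08. The arx levels were 9.56 CPM in RNA-low, 0.742 in S/G2/M, 1.11 in G1 and 1.23 in PM. Those in S/G2/M and PM were under the floors of 3 fragments, 0.953 and 1.59 CPM, so the distance rests partly on a few fragments. Next to Dll-1 followed innexin-1 (0.32), a gap junction gene, and COE (0.38). Those nearest to hb-2 were innexin-1 (0.20), arx (0.32) and msi-2 (0.33), an RNA-binding protein of the Musashi family. For lmx2 they were the gene given as nerfin-2[1] (0.27), Dll-1 (0.51) and COE (0.57). All of these genes had their highest level in RNA-low, as had hb-2, Dll-1 and lmx2, which they were chosen to resemble. In S/G2/M and PM, where lmx2 had 0 reads, nerfin-2[1] was at 0.318 and 0.254 CPM, also under the floors. The profiles were taken after adding 0.5 CPM, which weighs most at such low levels. The profiles nearest to PAX5-1 were mex3-3 (0.32), wnt11-1 (0.39) and IFT172 (0.42), and those nearest to DLL-2 were Kif27 (0.33), reticulocalbin-1 (0.38) and prog2g (0.38). IFT172 and Kif27 are named after genes of cilium assembly, and prog2g is one of the early epidermal progeny transcripts. The klf transcript SmedASXL_005628 had its nearest profiles in follistatin (0.36), nemo (0.41) and porcnA (0.41). With 4 libraries these distances are descriptions only.

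Other transcription factors were counted in the same way. Of 9 further named ones, 7 reached 5 CPM in RNA-low or G1, and 4 were called higher in RNA-low and 1 lower. The median log2 ratio of the 7 was 1.41, against 0.10 over all transcripts tested. Those higher were arx (log2 ratio 2.64), the proneural gene ascl-1 (2.79), COE (1.92) and the homeobox gene NKX2.1 (1.41). A separate transcript given as NKX2.1_Dth-2 had 77.9 CPM in RNA-low, against 18.1 CPM for NKX2.1. It was not called over G1 (0.57), S/G2/M (0.51) or PM (0.81). The level of ascl-1 was 26.7 CPM in RNA-low and 3.43 CPM in G1. The one lower was the homeobox gene given as NXK2.2_Dth-1, with levels of 4.53 CPM in RNA-low and 21.1 CPM in G1. Over PM, arx (2.54), ascl-1 (1.84) and NKX2.1 (1.92) were called higher, as was COE, and NXK2.2_Dth-1 lower (-1.44), out of 7 at the minimum. Over S/G2/M, 5 were called higher, with castor (1.81) among them, and 1 lower. Together with further factors whose names were picked from the bulk table, 34 transcripts in all, 15 reached the minimum in each RNA-low comparison. Of these, 8 were higher and 1 lower against G1, where 7.12% of all transcripts tested were called higher and 9.78% lower. Against S/G2/M, 11 were higher and 1 lower, with 22.5% and 18.1% over all. Against PM, 8 were higher and 1 lower, with 14.2% and 19.1% over all. Some of those called higher, arx and nerfin-2[1] among them, reached the minimum only through their RNA-low level. The counts therefore describe the listed factors and support nothing further. The neuronal markers COE and elav-2 shared their highest gate with hb-2, Dll-1 and lmx2, with a sum of 139 CPM in RNA-low, 17.6 in S/G2/M, 47.3 in G1 and 38.0 in PM. COE stands in both lists. The part of these markers in the levels of the members was not tested.

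In the single cells, hesl-3 stood apart from the other members because its reads were present in all 96 cells. Its reads numbered from 3 to 638 per cell with a median of 48, and 91 cells had at least 5 reads and 86 at least 10. The share was 100% of the 79 cells kept (exact binomial interval 95.4% to 100%) and 100% of the 17 cells left out for having fewer than 500 detected transcripts (80.5% to 100%). The cells left out had a median of 389 detected transcripts and the kept cells 2075. The cells with the fewest detected transcripts thus also carried hesl-3 reads, with a lowest count of 11 among the cells left out and 3 among the kept cells.

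**Figure D3:**
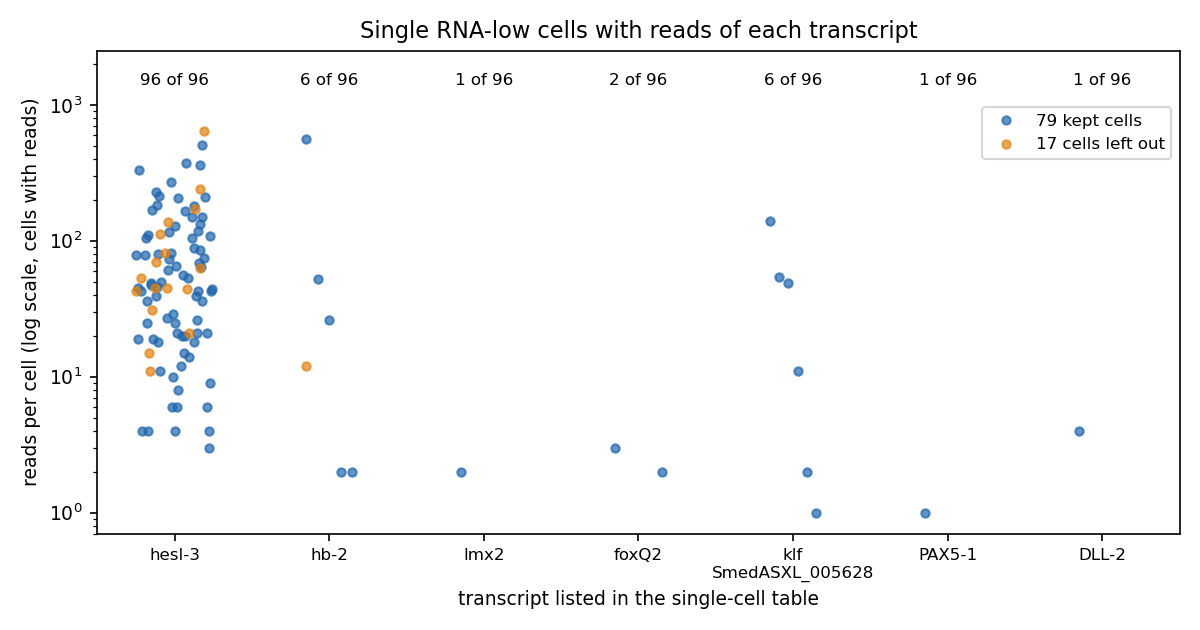
Reads per cell on a log axis for the 7 transcripts listed in the single-cell table, showing cells with at least 1 read. Blue points are the 79 kept cells, orange points the 17 cells left out, and the numbers at the top count cells with reads, 96 of 96 for hesl-3 and at most 6 of 96 for each other transcript.

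The hesl-3 level was also expressed in RPM, reads per 1000000 reads other than ribosomal RNA, with no further scaling. In the cells left out the lowest was 168, the median 729 and the highest 4706 RPM, against a lowest of 31.4, a median of 307 and a highest of 3505 RPM in the kept cells. That highest kept value came from a cell with only 3 hesl-3 reads among 856 reads other than ribosomal RNA, and the next kept cell was at 2305 RPM. The median was higher in the cells left out, and the ranges overlapped. Across the 96 cells, hesl-3 reads and reads other than ribosomal RNA had a Spearman rho of 0.45, and hesl-3 RPM and the number of detected transcripts had a rho of -0.44. Over the kept cells the values were 0.53 and -0.35. The measures of each pair share the depth of the cell, and the correlations describe cells of 1 sample. When each cell was thinned to 20000 reads other than ribosomal RNA, hesl-3 was read in 17 of 17 cells left out, with a median of 17 reads, and in 75 of 77 kept cells, with a median of 6 reads, and 2 kept cells were too shallow.

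**Figure D4:**
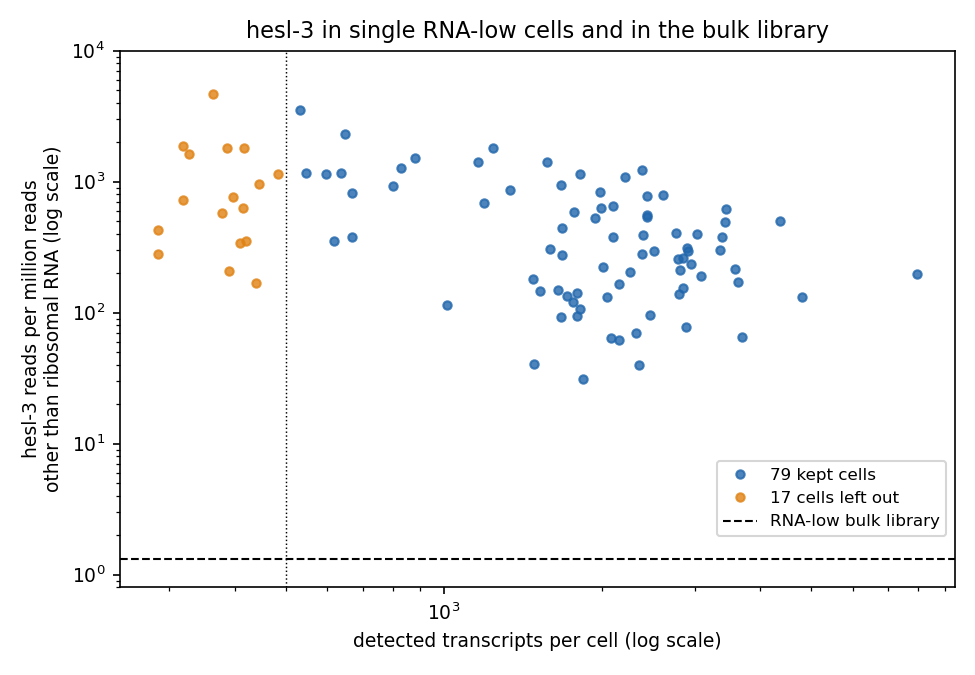
Level of hesl-3 in each single RNA-low cell, in reads per 1000000 reads other than ribosomal RNA (RPM), against the number of detected transcripts, both on log axes. The dashed line is the RNA-low bulk library at 1.32 RPM and the dotted line the minimum of 500 transcripts; all 96 cells lie above the bulk level.

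The RNA-low bulk library had 1.32 RPM of hesl-3. The median kept cell was therefore 233-fold above the bulk library and the median cell left out 552-fold, as values of libraries made with different kits. The lowest single cell, at 31.4 RPM, was above it too. Among 44 transcripts other than ribosomal RNA that were read in at least 90 cells, hesl-3 ranked 9 from the lowest by median reads per cell, not divided by length, and 23 of the 44 were read in every cell. Of the 44, 3 carry a gene name, namely hesl-3, NKX2.1 and a spondin transcript that was read in 90 cells. NKX2.1 was also read in all 96 cells, with 3 to 4663 reads and a median of 5136 RPM in the cells left out, 1476 in the kept cells and 22.6 in the RNA-low bulk library. Of 24940 transcripts listed in both tables at or below 5 RPM in the RNA-low bulk library, 14 were read in at least 90 cells, and the median transcript in 2 kept cells. The source of the hesl-3 reads found in every cell was not tested.

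The other members were seldom read in single cells. The transcript hb-2 was read in 5 of 79 kept cells (6.33%, interval 2.09 to 14.2) with 565, 52, 26, 2 and 2 reads, and in 1 of 17 cells left out with 12 reads. A single cell thus held 87.3% of the hb-2 reads of the kept cells. The klf transcript SmedASXL_005628 was read in 6 kept cells (7.59%, interval 2.84 to 15.8) with 140, 54, 49, 11, 2 and 1 reads, and in 0 of 17 cells left out, where the exact binomial interval reaches 19.5%. All of these 6 cells also had reads of piwi-1, the neoblast marker, as had 4 of the 5 kept hb-2 cells and 51 of all 79 kept cells. The piwi-1 reads, in the order of the klf reads above, were 8, 39, 1, 266, 285 and 249. Those of the kept hb-2 cells, in the order above, were 159, 280, 0, 8 and 26. The klf cells had a median of 2856 detected transcripts, the hb-2 cells 2044 and all kept cells 2075.

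Reads of foxQ2 were found in 2 kept cells, with 3 and 2 reads. Reads of lmx2 (2 reads), DLL-2 (4 reads) and PAX5-1 (1 read) were each found in 1 kept cell (1.27%, interval 0.03 to 6.85), and in no cell left out. No cell had reads of more than 1 of these 6 transcripts, which together were found in 17 cells. With at most 6 of 96 cells per transcript, these counts are too small to show whether the transcripts avoid shared cells. Dll-1 and the klf transcript SmedASXL_002500 are not listed in the single-cell table, in which every row has a read in at least 1 cell. At these counts, a difference between cells was not detectable for foxQ2, lmx2, DLL-2 or PAX5-1.

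Set beside the RNA-low bulk library, the pooled kept cells had 44.8 RPM of hb-2 against 65.1 RPM in bulk, and 5.80 RPM without the cell with the most reads. The klf transcript SmedASXL_005628 had 17.8 RPM in the pooled cells and 9.41 RPM in bulk, and 8.22 RPM in the cells without the highest one. The pooled level of PAX5-1 was 0.0693 RPM against 39.0 RPM in bulk, and that of lmx2 0.139 RPM against 6.48 RPM. For foxQ2 the pooled level was 0.347 RPM against 5.47 RPM, and for DLL-2 0.277 RPM against 0.964 RPM. Each of these 4 pooled levels rests on at most 2 cells and 5 reads. Of the 6714 transcripts listed in both tables with at least 20 RPM in the RNA-low bulk library, the median one was read in 7 kept cells, 40.7% were read in at most 5 and 4.36% in at most 1. The hb-2 transcript, read in 5 cells, and PAX5-1, read in 1, thus fell below that median. The Dll-1 bulk level of 30.6 RPM placed it among 115 of 6829 transcripts with at least 20 RPM that the single-cell table does not list.

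**Figure D5:**
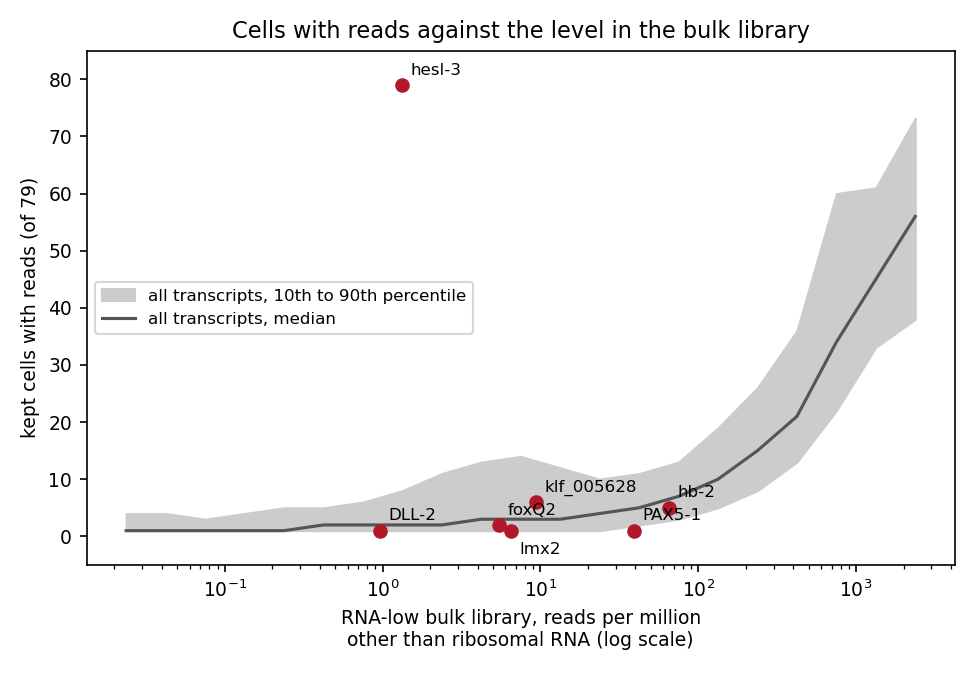
Number of the 79 kept cells with reads against the level in the RNA-low bulk library, in reads per 1000000 other than ribosomal RNA on a log axis, for the 7 transcripts listed in both tables (red). The line and the grey band are the median and the range between percentiles 10 and 90 of all transcripts listed in both tables; hesl-3 lies far above the band at 79 cells and PAX5-1 lies at 1 cell.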

How the data were processed

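Both tables hold raw read counts per transcript, as deposited by the authors. Per the labels' protocols, bulk RNA was extracted in Trizol and prepared with TruSeq kits, and single cells with Smart-seq2, which has no molecular identifiers. The submitters' processing notes name bcl2fastq 1.8.3 and Bowtie2, with the reference, filters and counter not given in the sources used here. The RNA-low bulk values were read from the column named G0, because the RNA-low single-cell columns also begin with G0 and the other columns name the other gates. Transcripts without a gene name stayed in the totals.

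Bulk counts were scaled by TMM in edgeR 4.0.16 under R 4.3.3 (median-of-ratios from DESeq2 1.42.0 as an alternative). Reads per fragment were the peak of each library's read-count histogram after a running mean over 3 counts, a rough estimate. Intervals were exact Poisson, binomial or conditional binomial at 95%. PCR reads are not independent molecules, so intervals and floors cover counting error only. Ribosomal RNA means the 16S and 28S rows, which took 16.9% of reads in RNA-low, 21.9% in S/G2/M, 16.8% in G1 and 35.1% in PM. Single cells held 1882 to 7719585 reads, with a median of 986484, and cells with at least 500 detected transcripts were kept. No doublet caller was run.

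The text names all 9 member transcripts, the 3 nearest named profiles of each at 5 CPM or more, named transcripts read in at least 90 cells, and listed transcription factors. The members and lists were chosen with earlier results of these data known. The calling step was tested on simulated data drawn with counting error only, as the intervals assume. That test cannot show how the calls behave with spread between replicate libraries. No genome or sequence table was used here, so no sequence is shown.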

Additional observations from a re-analysis of the deposited data

How the results depend on the processing

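Alternatives were other scalings, filters, added CPM, thresholds and intervals on reads. No called member ratio changed sign under any scaling or added CPM, and the calls lost were those given for klf, hb-2 and lmx2, 8 in all, while 9 were gained, by foxQ2, hesl-3, PAX5-1 and DLL-2, the last also in S/G2/M against PM (-2.04) with totals without ribosomal RNA. The median of all transcripts moved by over 0.1 in log2 with at least 1 scaling in every comparison except RNA-low against G1, by up to -0.44 for S/G2/M against PM with totals without ribosomal RNA. With those totals, 6 members were called between RNA-low and PM in place of 3, as PAX5-1 (-1.11), DLL-2 (-2.27) and hesl-3 were called lower. Without a filter that comparison gave 5 members. At least 50 CPM, by leaving fewer transcripts, kept 1 member in each of the 5 comparisons that had calls. In S/G2/M against PM, 1 member remained called with median-of-ratios scaling or 2 CPM added, and a 1.5-fold threshold gave 1 in G1 against PM. Scaling moved the split of calls by over 10 percentage points in 5 comparisons. RNA-low against S/G2/M had 2710 higher and 2179 lower, but 2280 and 2767 with median-of-ratios and 3384 and 1543 with library totals. RNA-low against PM had 1852 and 2501, but 978 and 3808 without ribosomal RNA. S/G2/M against G1 had 1499 and 2166, but 2116 and 1802 with median-of-ratios, 758 and 3126 with totals and 1030 and 3215 without ribosomal RNA. S/G2/M against PM had 2809 and 3214, but 1474 and 5343 without ribosomal RNA. G1 against PM had 944 and 1871, but 1410 and 1696 with totals and 607 and 2841 without ribosomal RNA. Over all transcripts, RNA-low against G1 gave 2010 calls, and 5903 without a filter, 384 at 50 CPM and 3918 at 1.5-fold. RNA-low against S/G2/M gave 4889, and 8808 without a filter and 1328 at 50 CPM. Under the same 3 alternatives, RNA-low against PM gave 4353, and 7483, 921 and 6702, and S/G2/M against G1 gave 3665, and 6556, 850 and 6215. S/G2/M against PM gave 6023, and 1666 at 50 CPM. G1 against PM gave 2815, and 4768, 331 and 4469. The kept cells with hesl-3 reads stayed within 1.5 times of 79 under every alternative. Cells with at least 1000 transcripts numbered 68, and all 68 had hesl-3 reads. Of the 79 kept cells, 69 had at least 10 reads. The levels without the highest cell and the longer list of transcription factors were chosen after seeing the data. No paired analysis was possible because each gate had 1 library.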
